A study of Homo sapiens with 6 samples.

Results

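Growth factor receptors sit at the head of the RAS, RAF, MEK and ERK cascade. A ligand of the EGF family (AREG, TGFA, HBEGF) is made as a membrane-anchored precursor, is shed by a metalloprotease and binds EGFR, which pairs with ERBB2 or ERBB3, while HGF binds MET, and FGF19, with the co-receptor KLB, binds FGFR4 and through it represses bile acid synthesis in hepatocytes. ERK in turn switches on genes that feed back on the cascade. Transcripts of 10 genes of this group were examined in HepG2, a human liver cancer cell line: the ligands AREG, TGFA, HBEGF and FGF19 and the receptors EGFR, ERBB2, ERBB3, MET, FGFR3 and FGFR4. They were chosen by name, with earlier results of these data known, and all 10 have a row among the 20422 genes of the series.

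RNA-Seq was done on 6 libraries, 3 of control HepG2 with the empty vector (NC) and 3 of HepG2 overexpressing the microprotein APPLE, encoded by ASH1L-AS1, with a Flag tag (ORF-Flag). The sample labels speak of plasmids put into the cells. The study's methods describe lines made with lentivirus and selected with puromycin, so both ways of delivery are given here. The level of ASH1L-AS1 was not analysed here, so the group labels were not checked against the overexpressed transcript. The comparison asks whether the RNA of the receptors and ligands that feed ERK differs between ORF-Flag and NC cells. The study's construct holds the reading frame of ASH1L-AS1 and the stretch before it. None of the 6 libraries carries the study's start-codon mutant, so added RNA and added microprotein cannot be told apart here. The depth of the NC libraries, in replicate order, was 20081203, 24907524 and 30088457 counts, and that of the ORF-Flag libraries 26866148, 17494668 and 27015836 counts. Nothing in the sources used here says that the 3 libraries of a group came from separate cultures, so the p-values measure only the spread between these libraries.

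The HepG2 label was compared with marker genes. All 12 hepatocyte and HepG2 markers passed the filter on low counts, and their summed level was 27330, 27980 and 28560 CPM (counts scaled to a common library size) in NC and 28610, 28300 and 28340 CPM in ORF-Flag, with APOB the most abundant. TTR, which hepatocytes secrete as a carrier of thyroid hormone, was low, between 5.63 and 6.66 CPM. The leukocyte genes PTPRC and CD3E had 0 counts in all 6 libraries, as had the endothelial genes KDR and EMCN and the fibroblast gene DCN. Summed over 7 fibroblast and stellate cell markers, the level was 71.2, 71.1 and 63.7 CPM in NC and 72.0, 72.3 and 71.9 CPM in ORF-Flag, nearly all from ACTA2. The 5 endothelial markers summed to 4.75, 4.16 and 5.01 CPM in NC and 6.56, 5.52 and 6.26 CPM in ORF-Flag, with PECAM1 the most abundant. The 6 leukocyte markers summed to 1260, 1407 and 1401 CPM in NC and 1495, 1598 and 1493 CPM in ORF-Flag, and the 5 cholangiocyte markers to 1079, 1045 and 1040 CPM and 1129, 1124 and 1139 CPM. LYZ carried the first of these sums, and the second came mostly from KRT19 and EPCAM. LYZ and KRT19 were called higher in ORF-Flag, as were APOA2 and FGB among the hepatocyte markers. Whether these markers have a part in the results for the receptors and ligands was not tested.

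No receptor or ligand passed the threshold in the main edgeR fit. Of 12386 genes that passed the filter on low counts, 551 (4.45%) had an adjusted p below 0.05 in edgeR's quasi-likelihood test, 306 (2.47%) higher and 245 (1.98%) lower in ORF-Flag. Among the 10 receptors and ligands, 9 passed the filter and 0 were called by edgeR, while DESeq2 called 1 (ERBB3) and limma-trend and limma-voom each called 0. An unadjusted p below 0.05 was found for 4 of the 9, AREG and MET higher and ERBB3 and FGFR4 lower, against 2293 (18.5%) of all genes tested. The groups did not overlap for 2 of the 9, ERBB3 and MET, against 2778 (22.4%) of all genes tested, so that share is near the background. The median log2 fold change of the 9 genes was 0.062, beside -0.0012 over all genes tested, and none of the 9 exceeded 0.12 in size. The count of called genes in the whole table rested on the libraries used: it was 267 without NC replicate 2, 1058 without NC replicate 3, and 300, 278 and 199 without ORF-Flag replicates 1, 2 and 3. The count of 4 at an unadjusted p below 0.05 was 1 without NC replicate 1 and 2 without ORF-Flag replicate 2.

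**Figure D1:**
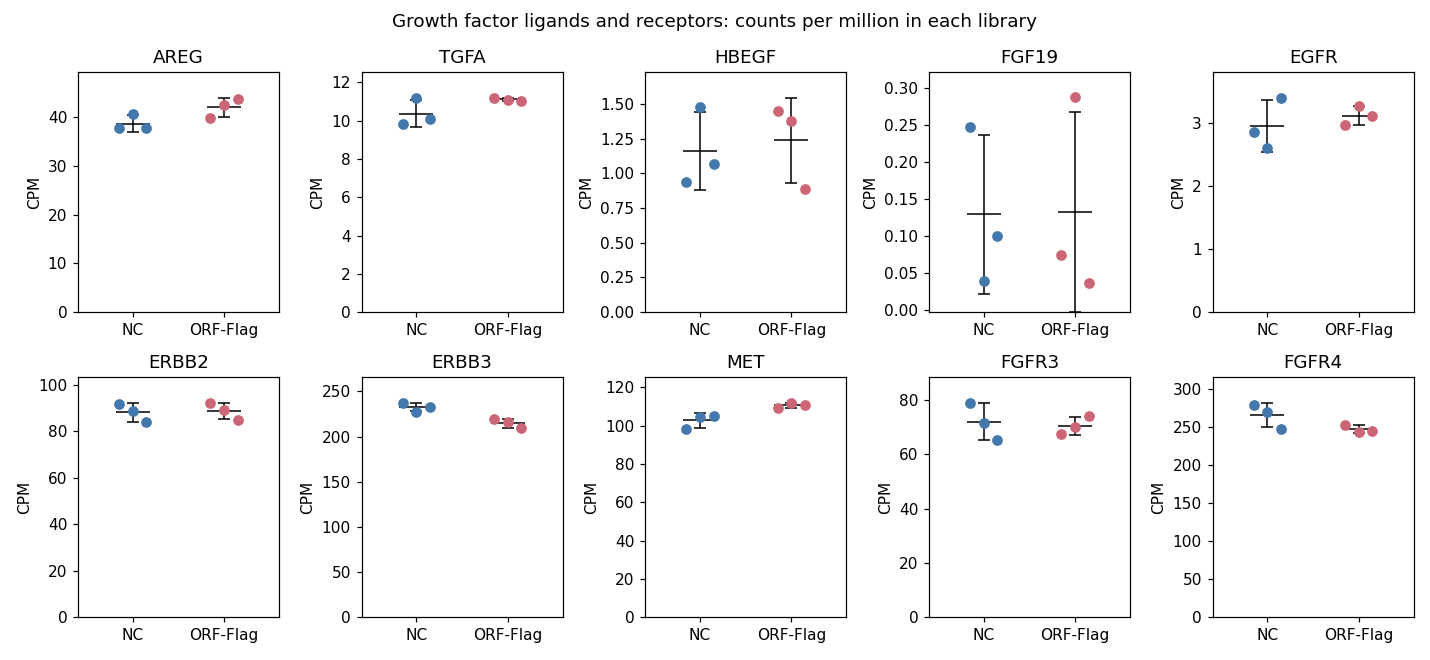
Level of each receptor and ligand in CPM (y axis) in the NC and ORF-Flag libraries (points), with the mean and the SD of 3 libraries as the bar and whiskers. The groups are apart for ERBB3 and MET, and overlap for the other genes, among them FGF19 with at most 5 counts in a library.

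Levels of different genes were set side by side per length, as TPM (counts per base of exon, scaled to a common total) from the exon lengths of GENCODE v29. FGFR4 was the most abundant of the 10, at 166 ± 11.4 TPM in NC and 153 ± 4.58 TPM in ORF-Flag (SD, n = 3). ERBB3 and AREG came next and overlapped over the 6 libraries, between 69.1 and 79.4 TPM and between 68.0 and 78.8 TPM. MET and FGFR3 also overlapped, at 42.3 to 47.0 TPM and 40.1 to 49.3 TPM, and ERBB2 followed at 24.2 to 26.9 TPM. TGFA lay at 6.00 to 6.81 TPM, HBEGF at 0.877 to 1.48 TPM, EGFR at 0.625 to 0.810 TPM and FGF19 at 0.0451 to 0.347 TPM, and no 2 neighbours among these overlapped. Thus EGFR, the receptor that AREG, TGFA and HBEGF bind, was by RNA the scarcest of the 6 receptors among these 10 genes. By CPM, which takes no account of length, AREG moved from rank 3 to rank 6, below MET, ERBB2 and FGFR3, and EGFR and HBEGF changed places at ranks 8 and 9.

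ERBB3 lay above AREG in all 3 NC libraries and in 1 of 3 ORF-Flag libraries. The ratio of ERBB3 to AREG, both in TPM, was 1.15, 1.02 and 1.13 in NC and 1.01, 0.927 and 0.877 in ORF-Flag, so every NC library lay above every ORF-Flag library. This ratio was chosen after its values were seen, and it was not tested.

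**Figure D2:**
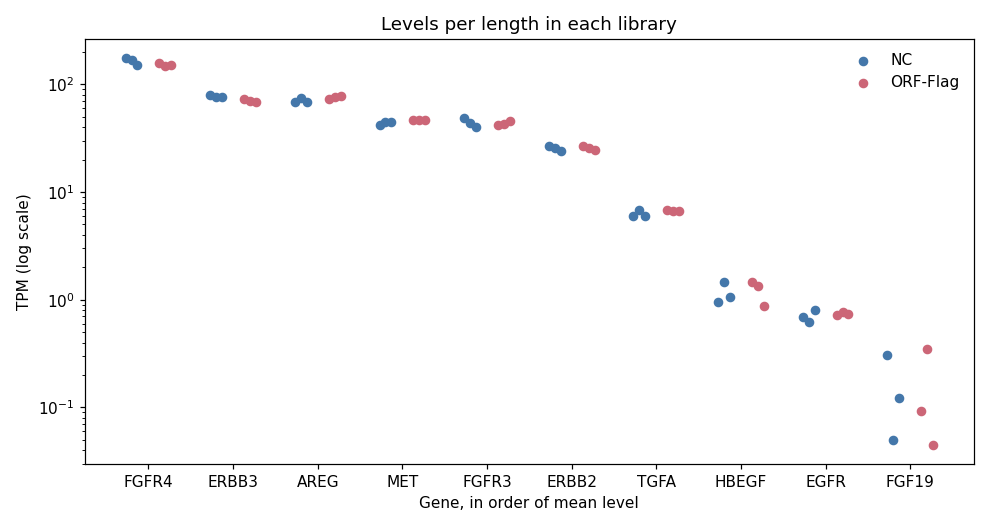
Level per length in TPM (y axis, log scale) of the 10 genes in each library, in order of their mean. FGFR4 lies above 149 TPM in each library and EGFR at 0.810 TPM or less.

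Within each receptor family 1 gene held most of the RNA. Of the TPM of EGFR, ERBB2, ERBB3 and ERBB4, ERBB3 took between 72.6% and 75.4%, ERBB2 between 23.8% and 26.7% and EGFR between 0.612% and 0.798%. ERBB4 had at most 1 count in any library. Of the TPM of FGFR1 to FGFR4, FGFR4 took between 75.3% and 77.6% and FGFR3 between 20.3% and 22.6%. Among the 11 EGF family ligands, AREG took between 88.0% and 90.2% of the TPM. This share depends on exon length, and by CPM the means in NC were 38.6 for AREG and 10.4 for TGFA.

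The bases upstream of the starts of these genes were searched for letters bound by transcription factors that act below ERK. RefSeq promoters (GRCh38.p14) were matched for 8 of the 10 genes, with 11 starts between them, and not for ERBB3 and FGF19. In the 250 bases before a start, on both strands, a loose form of the AP-1 letters was searched, TGANTCA with N as any base. It was found at 2 of the 11 starts, belonging to EGFR and ERBB2, and at 6.57% of all 35116 promoters. The middle base was G or C in EGFR and T in ERBB2, so the ERBB2 match rests on the open middle base. The CRE letters TGACGTCA were found only at AREG among these genes, and at 1.65% of all promoters. CCGGAAGT, bound by ETS factors, was found at ERBB2 alone of these genes and at 3.42% of all promoters, and GCGTGGGCG, bound by EGR1, at 0 of the 11 starts and at 0.72% of all. These motifs were chosen after the expression values were seen, and a match describes letters only. The stretches with the AP-1 and CRE letters are printed below because AREG is the most abundant of the EGF family ligands, EGFR is its receptor and ERBB2 the partner of EGFR. None of the 3 genes was called by edgeR. Capitals mark the motif, and each stretch of 30 bases reads 5′ to 3′ on the + strand. That of AREG lies at chr4:74445060-74445089, those of EGFR at chr7:55109596-55109625 and chr7:55109692-55109721, before a start inside the span of the gene, and that of ERBB2 at chr17:39687861-39687890.
AREG: cggccgggcctTGACGTCAtgggctgcggc
EGFR, first: gctttcccatgTGAGTCAttgctagtcaga
EGFR, second: gtataaactttTGACTCAcaggacaaattc
ERBB2: gggagcggaagTGATTCAgagcgcccccag

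Among the ligands, AREG (amphiregulin, shed to activate EGFR) was measured at 37.6, 40.6 and 37.7 CPM in NC replicates 1, 2 and 3 and at 39.7, 42.5 and 43.6 CPM in ORF-Flag. NC replicate 2 lay above ORF-Flag replicate 1, so the groups overlapped. The means were 38.6 ± 1.73 CPM and 41.9 ± 2.01 CPM (SD, n = 3), and the log2 fold change was 0.12 (SE 0.0548, 95% interval 0.0036 to 0.23). Its unadjusted p was 0.044 and its edgeR adjusted p was 0.25, so AREG did not pass the threshold.

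TGFA, another EGFR ligand, stood at 9.84, 11.2 and 10.1 CPM in NC and at 11.2, 11.1 and 11.0 CPM in ORF-Flag, and NC replicate 2 lay among the ORF-Flag libraries. Its log2 fold change was 0.099 (95% interval -0.083 to 0.28) with an edgeR adjusted p of 0.61. HBEGF, a heparin-binding ligand of EGFR and ERBB4, gave few reads, between 19 and 39 counts per library. At 0.940, 1.48 and 1.07 CPM in NC and 1.45, 1.38 and 0.889 CPM in ORF-Flag the groups overlapped throughout, and the interval of its log2 fold change, -0.49 to 0.62, leaves room for changes in both directions. EREG, a ligand of EGFR and ERBB4, was close to HBEGF per length, at means of 1.24 TPM in NC and 1.18 TPM in ORF-Flag against 1.16 and 1.23 TPM, and had a log2 fold change of -0.033 and an edgeR adjusted p of 0.96. Of the 11 EGF family ligands 4 passed the filter. Of these 0 were called by edgeR and 1 had an unadjusted p below 0.05, beside 4.45% and 18.5% of all genes tested. BTC and NRG4 had 0 counts in all 6 libraries, where 3 counts correspond to between 0.0997 and 0.171 CPM.

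FGF19, a hormone that the intestine releases and that acts on the liver, gave 5, 1 and 3 counts in NC and 2, 5 and 1 counts in ORF-Flag. It did not pass the filter and has no test. The ratio of the summed counts, ORF-Flag to NC and scaled to the totals, was 0.935 with an exact 95% interval of 0.314 to 2.73, which covers counting error only, so changes within that interval were not detectable at this depth. Of the 22 FGF ligands 3 passed the filter, FGF17, FGF13 and FGF11, with mean levels in NC of 1.33, 0.917 and 0.481 TPM. Of these 0 were called by edgeR and 0 had an unadjusted p below 0.05, beside 4.45% and 18.5% of all genes tested. Exons of other genes cover 79.7% of the exon bases of FGF11, so its counts are uncertain. FGF11 and FGF13 are kept inside the cell and are not thought to act through FGF receptors.

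Among the ERBB receptors, ERBB3, which has little kinase activity of its own and signals by pairing with ERBB2 or EGFR, came nearest to the threshold. Its level was 237, 228 and 233 CPM in NC and 219, 216 and 210 CPM in ORF-Flag. Each ORF-Flag library lay below each NC library. The means were 233 ± 4.67 CPM and 215 ± 4.90 CPM (SD, n = 3), a fold of 0.924 and a log2 fold change of -0.11 (SE 0.0338, 95% interval -0.18 to -0.044). The unadjusted p was 0.0025 and the edgeR adjusted p was 0.053. Over the alternative settings the log2 fold change stayed between -0.13 and -0.10 and the adjusted p ranged from 0.029 to 0.28. Among the settings that called ERBB3, the adjusted p was 0.04 in DESeq2, 0.044 in edgeR without TMM factors, 0.033 in edgeR without the filter and 0.043 in edgeR without NC replicate 3.

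ERBB2, the receptor without a known ligand of its own, had the smallest difference of the 9 genes tested. It was measured at 91.7, 88.4 and 83.9 CPM in NC and at 92.0, 88.9 and 85.0 CPM in ORF-Flag, and the 2 sets of values interleaved. The log2 fold change was 0.012 with a 95% interval of -0.077 to 0.10 and an edgeR adjusted p of 0.92. Exons of MIEN1 and PGAP3 cover 7.41% of its exon bases, and 3.9% of all 31-base stretches in its longest RNA occur in another gene, so some reads may have been split or dropped in counting. EGFR was low, at 2.87, 2.60 and 3.41 CPM in NC and 2.98, 3.27 and 3.11 CPM in ORF-Flag, or 57 to 102 counts per library, and the ORF-Flag values fell inside the range of NC. Its log2 fold change of 0.062 had the wide interval of -0.28 to 0.40 and an edgeR adjusted p of 0.89. EGFR-AS1 overlaps 1.49% of the EGFR exon bases, and whether strand was used in counting is not given in the sources used here. Over the 3 ERBB receptors tested 0 were called by edgeR, beside 4.45% of all genes tested. The unadjusted p was below 0.05 for 1, ERBB3, beside 18.5% of all genes tested.

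The 3 genes whose pattern over the 6 libraries came closest to that of ERBB3 were SMYD5, GRSF1 and HLA-C, with root-mean-square differences of 0.0123, 0.0132 and 0.0136 in centred log2 CPM. ERBB3 itself had a root-mean-square deviation of 0.0624 from its mean. HLA-C, a chain of the class I antigen-presenting complex, was at 84.7, 81.8 and 83.2 CPM in NC and 77.2, 77.6 and 73.5 CPM in ORF-Flag. The edgeR adjusted p of SMYD5, GRSF1 and HLA-C was 0.23, 0.11 and 0.071.

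MET, the HGF receptor, was measured at 98.4, 104.8 and 105.3 CPM in NC and at 109.3, 111.9 and 110.7 CPM in ORF-Flag. All 3 ORF-Flag libraries lay above all 3 NC libraries, and NC replicate 1 was the lowest. The log2 fold change was 0.10 (SE 0.0385, 95% interval 0.023 to 0.18), the unadjusted p was 0.013 and the edgeR adjusted p was 0.14. HGF itself had 0 counts in all 6 libraries. MST1, the ligand of the MET relative MST1R, was the most abundant tested gene of the HGF axis per length, at 65.2 TPM in NC and 60.7 TPM in ORF-Flag, and SPINT1, an inhibitor of the protease that activates HGF, was at 39.3 and 40.3 TPM. Of the 9 genes of the HGF axis 7 passed the filter and 0 were called by edgeR, beside 4.45% of all genes tested. The unadjusted p was below 0.05 for 2, MST1 and MET, beside 18.5% of all genes tested.

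FGFR4, the main FGF receptor of hepatocytes, was measured at 280, 270 and 248 CPM in NC and at 253, 244 and 246 CPM in ORF-Flag. NC replicate 3 lay below ORF-Flag replicate 1, so the groups overlapped. The log2 fold change was -0.10 (SE 0.0387, 95% interval -0.18 to -0.022), the unadjusted p was 0.014 and the edgeR adjusted p was 0.14. Without NC replicate 3 the log2 fold change became -0.15 and the edgeR adjusted p 0.004, while over all alternative settings the adjusted p ranged from 0.004 to 0.37. FGFR3, a second FGF receptor, gave 78.9, 71.4 and 65.4 CPM in NC and 67.4, 70.1 and 74.0 CPM in ORF-Flag, and its NC libraries spread over a wider range than the difference of the means. Its log2 fold change was -0.022 (95% interval -0.14 to 0.090) with an edgeR adjusted p of 0.88.

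KLB, the co-receptor that lets FGFR4 bind FGF19, was present at 47.0 TPM in NC and 45.3 TPM in ORF-Flag, with a log2 fold change of -0.048 and an edgeR adjusted p of 0.60. KL, the related co-receptor of FGF23, had 0 counts. All 5 tested FGF receptors and co-receptors had a negative log2 fold change, as had 6253 of all 12386 genes tested. The median of the 5 was -0.048, beside -0.0012 over all genes tested. Of the 5, 0 were called by edgeR, beside 4.45% of all genes tested. The unadjusted p was below 0.05 for 2, FGFR4 and FGFRL1, beside 18.5% of all genes tested. Leaving out NC replicate 1 or ORF-Flag replicate 1 turned the log2 fold change of FGFR3 positive, at 0.046 and 0.011. Without NC replicate 3 edgeR called 2 genes of the list, and 1058 genes in the whole table against 551 in the main fit. FGFRL1, a receptor without a kinase domain, is named here after its value was seen.

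**Figure D3:**
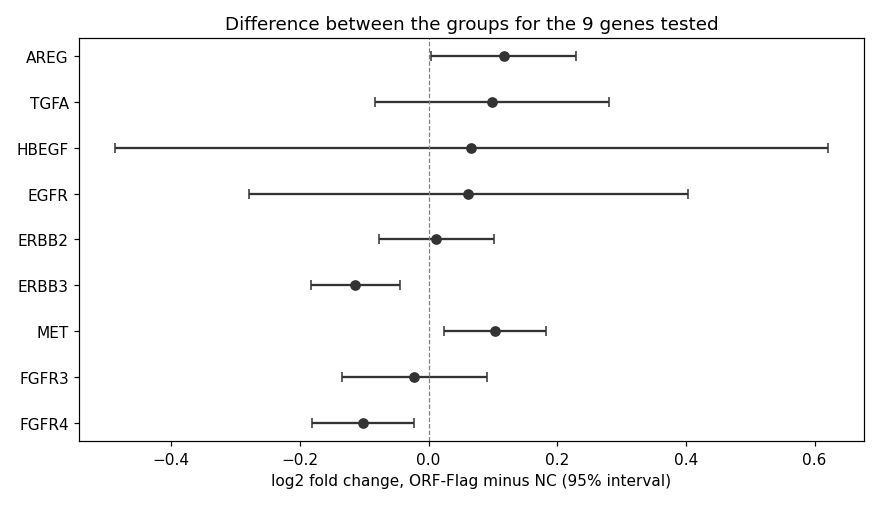
Difference between the groups for the 9 genes that passed the filter, as the log2 fold change of ORF-Flag against NC (x axis) with its 95% interval. The intervals of AREG, MET, ERBB3 and FGFR4 leave out 0 before any adjustment, and those of HBEGF and EGFR are the widest.

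The genes that act on the receptors and carry their signal were read from the same fit. Of the 7 genes for ligand shedding 6 passed the filter and 1 was called, beside 4.45% of all genes tested. The unadjusted p was below 0.05 for 3, beside 18.5% of all genes tested. ADAM9, a membrane metalloprotease, rose from 416, 440 and 452 CPM in NC to 479, 471 and 472 CPM in ORF-Flag, with a log2 fold change of 0.12 (SE 0.034) and an edgeR adjusted p of 0.042. ADAM9 was called in 1 of 6 fits that left out a library, the one without NC replicate 3, and its adjusted p reached 0.16 in the others. ADAM17, the main sheddase of AREG, TGFA and HBEGF, had a log2 fold change of -0.012 and ADAM10 one of 0.0026, with edgeR adjusted p of 0.93 and 0.98. RHBDF2, which brings ADAM17 to the cell surface, had a log2 fold change of 0.13 and an edgeR adjusted p of 0.22. Its relative RHBDF1, named after its value was seen, had a log2 fold change of -0.23 and the same edgeR adjusted p of 0.22, with each ORF-Flag library below each NC library.

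The list of receptor brakes held 16 genes that bear on the inhibition or degradation of activated receptors. Of these 15 passed the filter and 0 were called by edgeR, beside 4.45% of all genes tested. The unadjusted p was below 0.05 for 2, beside 18.5% of all genes tested. Without the filter on low counts 1 was called, and 824 genes in the whole table. The 2 genes, named after their values were seen, were UBASH3B, which binds CBL and is known to hold back its degradation of EGFR rather than to aid it, and SOCS5, which promotes the degradation of EGFR. Their log2 fold changes were 0.19 and 0.20, with edgeR adjusted p of 0.061 and 0.062, and in both each ORF-Flag library lay above each NC library. The groups did not overlap for 3 of the 15, beside 22.4% of all genes tested, and in the other one, ERRFI1, each ORF-Flag library lay below each NC library. ERRFI1, which binds and inhibits the kinases of the ERBB family, was the most abundant of them per length, at 348 TPM in NC and 337 TPM in ORF-Flag, with a log2 fold change of -0.038 and an edgeR adjusted p of 0.58. PTPN1, a tyrosine phosphatase of receptors, and SH3KBP1, a partner of CBL in receptor uptake, had edgeR adjusted p of 0.60 and 0.34. All 12 adaptors were tested, and 0 were called by edgeR, with 0 at an unadjusted p below 0.05, beside the same shares of all genes tested. SHC1 and GRB2, which dock on activated receptors, and SOS1, which loads RAS with GTP, had log2 fold changes of -0.0032, -0.061 and 0.070. Of the 11 genes from RAS to ERK all were tested and 0 were called by edgeR, beside 4.45% of all genes tested. The unadjusted p was below 0.05 for 0, beside 18.5% of all genes tested, and their log2 fold changes lay between -0.080 and 0.056. The most abundant of them per length, MAP2K2 (MEK2), MAPK3 (ERK1) and NRAS, were at 62.5, 40.8 and 34.8 TPM in NC and at 58.8, 40.6 and 36.0 TPM in ORF-Flag.

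The last step of the pathway is the set of genes that ERK induces or that feed back on it. Of 17 ERK feedback and output genes 16 passed the filter. Of these 5 were called higher and 1 lower in ORF-Flag, beside 2.47% and 1.98% of all genes tested, and 7 had an unadjusted p below 0.05, beside 18.5%. Their median log2 fold change was 0.12, beside -0.0012 over all genes tested. These genes were listed with earlier results of these data known, and no test compared the list with other genes. Without ORF-Flag replicate 3 the list had 3 calls, and of the 6 genes only FOSL1 and IER3 kept theirs. The list had 4 calls without NC replicate 2, ORF-Flag replicate 1 or ORF-Flag replicate 2, while limma-trend and edgeR without the filter each gave 7. EGR1, an early gene that encodes a zinc finger factor and that is named here after its value was seen, just missed the threshold: it was at 3.07, 2.92 and 3.21 CPM in NC and at 4.36, 4.25 and 4.33 CPM in ORF-Flag, with a log2 fold change of 0.49 (SE 0.145, edgeR adjusted p = 0.052). FOSL1, a subunit of AP-1, rose from 11.6, 9.41 and 12.2 CPM in NC to 15.1, 16.2 and 16.0 CPM in ORF-Flag, or by 0.50 on the log2 scale (SE 0.0901, edgeR adjusted p = 0.0014). DUSP6, the phosphatase that acts on ERK in the cytoplasm, rose from 64.5, 65.8 and 63.6 CPM to 74.5, 72.8 and 74.4 CPM, a log2 fold change of 0.20 (SE 0.0418, edgeR adjusted p = 0.0077). DUSP5, the ERK phosphatase of the nucleus, was scarce and rose by 0.81 on the log2 scale (SE 0.175, edgeR adjusted p = 0.0084), from 2.67, 3.36 and 2.41 CPM to 5.21, 3.50 and 5.70 CPM. Its ORF-Flag replicate 2 lay just above the highest NC library. Without ORF-Flag replicate 3 the edgeR adjusted p of DUSP5 was 0.093 and that of DUSP6 0.05, and neither was called.

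IER3, an early response gene that prolongs ERK signalling, rose by 0.24 (SE 0.0468, edgeR adjusted p = 0.0029) and the ETS factor ETV4 by 0.14 (SE 0.0356, edgeR adjusted p = 0.028) on the log2 scale. CCND1, the cyclin D1 gene, went the other way, from 126, 120 and 116 CPM in NC to 109, 112 and 109 CPM in ORF-Flag, with a log2 fold change of -0.14 (SE 0.0386, edgeR adjusted p = 0.035). ETV4 lost its call in 4 of the 6 fits that left out a library, those without NC replicate 2 or any one of the ORF-Flag libraries, with an adjusted p of up to 0.13. CCND1 lost it in 5 of 6, all but the one without NC replicate 3, with an adjusted p of up to 0.16. Exons of other genes cover 40.5% of the exon bases of DUSP6, 26.5% of those of IER3 (by its antisense gene IER3-AS1) and 10.3% of those of CCND1, so part of their counts may belong to those genes. PHLDA1, SPRED2 and ETV5, the most abundant of the list that were not called, had log2 fold changes of -0.044, 0.078 and -0.017.

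The genes of bile acid synthesis, sensing and transport around FGF19 gave 1 call among 8 tested of 12, beside 4.45% of all genes tested. There were 2 calls without NC replicate 3 and 2 without the filter on low counts. In these fits 1058 and 824 genes of the whole table were called. NR0B2 (SHP), the nuclear receptor that represses bile acid synthesis, rose from 79.6, 80.6 and 76.4 CPM in NC to 98.0, 92.0 and 92.1 CPM in ORF-Flag, and the groups did not overlap. Its log2 fold change was 0.26 (SE 0.0414, edgeR adjusted p = 0.00049), and it was called in all 14 alternative fits. CYP27A1, an enzyme of the alternative route of bile acid synthesis, was at 161 TPM in NC and 147 TPM in ORF-Flag with an edgeR adjusted p of 0.11, and NR1H4 (FXR), the bile acid receptor, and SLC51B, a subunit of the bile acid exporter, had edgeR adjusted p of 0.82 and 0.86.

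Among 28 other receptor tyrosine kinases 10 passed the filter. Of these 0 were called by edgeR and 0 had an unadjusted p below 0.05, beside 4.45% and 18.5% of all genes tested. The most abundant per length were MERTK, which takes part in the uptake of dead cells, at 42.1 TPM in NC and 44.1 TPM in ORF-Flag, and PTK7 and RYK, co-receptors of Wnt ligands, at 32.8 and 31.6 TPM and at 30.4 and 29.1 TPM. The list holds neither the Eph receptors nor the receptors of insulin and IGF1. Of these EPHA2, a receptor of membrane-bound ephrins that is named here after its value was seen, rose from 182.7, 178.6 and 164.8 CPM in NC to 207.5, 212.4 and 198.3 CPM in ORF-Flag. Its log2 fold change was 0.23 (SE 0.0394, edgeR adjusted p = 0.00079), and it was called in all 14 alternative fits. EPHB4, EPHA1, INSR and IGF1R, also named after their values were seen, had edgeR adjusted p of 0.12, 0.43, 0.92 and 0.33. Over all lists together, with the 10 receptors and ligands left out, 8 of 91 genes tested were called, 7 higher and 1 lower, beside 4.45% of all genes tested. Of these 8, 6 belong to the ERK feedback and output genes. The count was 5 without NC replicate 2, ORF-Flag replicate 1 or ORF-Flag replicate 2, and 4 without ORF-Flag replicate 3. All lists were chosen with earlier results of these data known, and no test compared them with other genes.

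**Figure D4:**
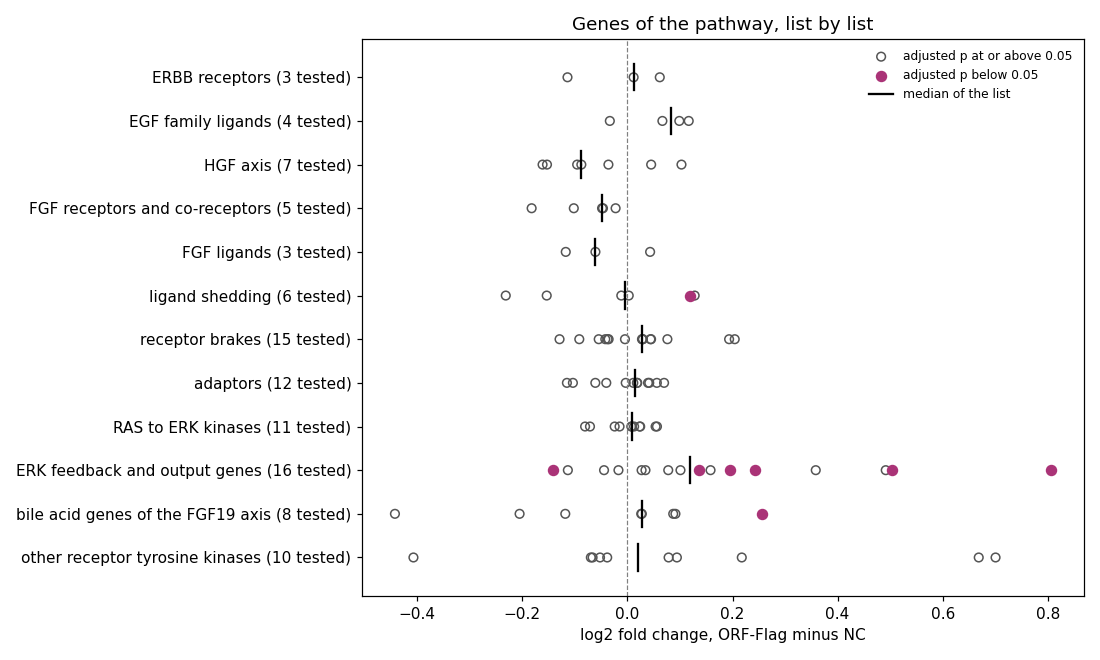
Log2 fold change of ORF-Flag against NC (x axis) of each tested gene in 12 lists of the pathway (rows), with genes at an adjusted p below 0.05 filled and the median of each list as a line. Filled points stand in 3 lists: ligand shedding with 1, ERK feedback and output genes with 6, and bile acid genes with 1.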

How the data were processed

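The values deposited by the authors are unnormalized read counts on 20422 Ensembl genes. The submitters' processing notes list cutadapt 1.11, HISAT2 2.1.0, featureCounts 1.6.0, edgeR and the build GRCh38. The annotation release, the use of strand and the handling of reads shared between genes are not given in the sources used here. Symbols were matched for 20421 identifiers.

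Groups were compared with edgeR 4.0.16 in R 4.3.3 (filterByExpr, TMM, glmQLFit, glmQLFTest, Benjamini-Hochberg over all 12386 genes tested). A gene was called at an adjusted p below 0.05. CPM used TMM-scaled library sizes. TPM used the exon lengths of GENCODE v29 and no test. The members and lists were chosen with earlier results of these data known. By rule, named genes were the 10 receptors and ligands, each called gene of a list, up to 3 of the most abundant other tested genes of each list, and the 3 genes nearest in pattern to the receptor or ligand with the smallest p. Other genes whose differences are given are marked in the text as named after their values were seen, and cell type markers and genes at or near 0 counts are named besides. Alternatives were DESeq2 1.42.0, limma 3.58.1 (trend with a prior count of 2, and voom), library sizes without TMM, DESeq2's size factors in edgeR, no filter, at least 10 counts in every library, a block for the replicate number, the omission of each library in turn, and a fold change above 1.2 with an unadjusted p below 0.05. The edgeR, DESeq2 and limma fits were tested on simulated data. Chi-square tests between libraries of a group gave 2.39 to 5.23 per degree of freedom, above what sampling noise alone gives. The figures were drawn with matplotlib 3.10.9.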

Additional observations from a re-analysis of the deposited data

How the results depend on the processing

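The count of receptors and ligands called, 0 in edgeR, was 1 with DESeq2, without TMM factors, without the filter on low counts and with the replicate block, in each case ERBB3 (edgeR adjusted p = 0.029 with the replicate block), and between 0 and 2 when single libraries were left out. It stayed at 0 with limma-trend, limma-voom, DESeq2's size factors in edgeR, at least 10 counts in every library, and a fold change above 1.2 with an unadjusted p below 0.05. This last rule could call none of them, since the largest of their log2 fold changes in size was that of AREG, a fold of 1.084. The cause of the differences between settings was not tested. The count at an unadjusted p below 0.05 was 4, and between 1 and 4 with a library left out. Genes called in the whole table numbered 551, and between 199 and 1058 with a library left out, 131 to 502 of them higher and 68 to 556 lower. Without the filter 414 genes were called lower, where more genes are tested. The list genes called, 8 with the 10 receptors and ligands left out, numbered 4 to 10 with a library left out. Fewer libraries enter each of these fits.

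With a library left out, the log2 fold changes crossed 0 for EGFR (-0.028 to 0.19), ERBB2 (-0.023 to 0.043), HBEGF (-0.097 to 0.28) and FGFR3 (-0.090 to 0.046), none of them called. For ERBB3, AREG, TGFA, MET, FGFR4 and the 8 called list genes the sign held under each of the 14 alternative fits. Libraries with the same replicate number share only a number: the correlations of their deviations from the group means were 0.0666, 0.0266 and 0.0448, and 5 of the 6 libraries correlated best with their own number, all but ORF-Flag replicate 2 (0.0304 with NC replicate 3), a hint from the data and not the design. With the replicate block 731 genes were called, against 551 without it, and the calls among receptor brakes and bile acid genes were 1 and 2, against 0 and 1. Depth limits FGF19, HBEGF and EGFR, with at most 5, 39 and 102 counts in a library.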
